A study of Mus musculus with 12 samples.

Results

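The SOCS family of feedback inhibitors, 8 genes of the 20778 in the count table, was followed in CD8 T cells across 4 culture conditions. The members were chosen by symbol alone, Socs1 to Socs7 and Cish, and all 8 were found and passed the filter on low counts, as did 12122 genes in all. The cells came from C57BL/6 spleens by magnetic bead isolation, from mice labelled as 6 weeks old, and were cultured for 6 hours before mRNA sequencing. The 4 groups, with 3 libraries each, were cells left untreated (Naïve), cells given an antibody to CD3, through which the T cell receptor signals (αCD3, 1 µg/ml), cells given interferon gamma (IFNγ, 70 ng/ml), and cells given bacterial lipopolysaccharide (LPS, 1 µg/ml). The αCD3 and LPS doses stand in µg/ml in one label field and in mg/ml in another, and older mice are described in the methods, so both are uncertain. The labels do not say whether replicates came from separate mice or cultures, so p-values measure only the spread between these libraries, which may be technical.

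Cytokines signal through receptors that carry Janus kinases (JAKs), which phosphorylate STAT transcription factors. SOCS proteins close this loop, since many of them are transcribed in response to STATs and then block the receptor or its kinase. Each has an SH2 domain, which binds phosphotyrosine, and a SOCS box, which recruits a ubiquitin ligase. SOCS1 and SOCS3 also inhibit the kinase directly, and Cish and Socs2 are known targets of STAT5, which acts below the IL-2 receptor.

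Libraries held 10.2 M to 27.6 M counts, and the members were well sampled, from 200 counts for Socs5 to 8156 for Socs3 in a single library. Markers of other cells were present in every group. The summed CPM (counts relative to library size, corrected with TMM factors) of 10 B cell markers was 2052 to 3720 per library, against 1451 to 2556 for 10 T cell markers, and none of these 20 genes was at 0 in a library. The 14 myeloid markers, none of them at 0, summed to 583 to 1068 CPM in replicate 1 of the 4 groups and to 1050 to 1828 CPM in the other libraries. In bulk samples of this kind, a change in the number of cells of one type and a change in RNA per cell cannot be told apart.

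To show the promoter sequences of the inducible members, the 250 bases before the annotated start were taken from RefSeq (GRCm38.p6) for the 4 members that the promoter table held, namely Socs1, Socs3, Socs4 and Cish. Sequence is given for Socs1 and Socs3, the members with the largest changes, on the strand of the gene. Capitals mark matches to the core of the interferon-stimulated response element (ISRE, GAAA followed after 2 bases by GAAA) in Socs1 and to the STAT-binding GAS element (TTC followed after 3 bases by GAA) in Socs3.
Socs1 (chr16:10785537-10785786, minus strand): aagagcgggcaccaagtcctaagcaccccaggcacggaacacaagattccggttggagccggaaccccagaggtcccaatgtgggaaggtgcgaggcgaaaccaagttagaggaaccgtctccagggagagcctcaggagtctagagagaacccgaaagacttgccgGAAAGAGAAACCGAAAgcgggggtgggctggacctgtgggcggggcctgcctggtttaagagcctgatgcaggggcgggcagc
Socs3 (chr11:117969452-117969616, minus strand): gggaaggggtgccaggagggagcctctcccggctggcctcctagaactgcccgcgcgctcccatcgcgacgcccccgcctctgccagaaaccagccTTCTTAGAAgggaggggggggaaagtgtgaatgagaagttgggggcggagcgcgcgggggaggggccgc
Both strands were searched for these letters, for a STAT6-type motif (TTC and GAA 4 bases apart) and for a kappaB motif (GGGA and TTCC 2 bases apart). Socs1 held 2 overlapping ISRE matches, GAAAGAGAAA at 83 to 74 and GAAACCGAAA at 77 to 68 bases before the start, and no match to the other 3 motifs. Socs3 held 1 GAS match, TTCTTAGAA, at 154 to 146 bases before the start. Only the 165 bases of its window that lie before an annotated exon are printed. The Socs4 and Cish windows held none of the 4 motifs, and the Cish window lies within an annotated exon and is not printed. Among 32851 RefSeq promoter windows of the same length, 2.98% held the ISRE core, 7.02% the GAS motif, 5.85% the STAT6-type motif and 1.21% the kappaB motif. A match of letters is a description and does not show that a factor bound there.

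To determine which members differed among the conditions, all 12 libraries were fitted together with edgeR and p-values were adjusted over all tested genes, with an adjusted p under 0.05 taken as called. Of the 8 members, 3 differed among the 4 groups, namely Socs3 (adjusted p = 9.7e-04), Socs5 (adjusted p = 0.00723) and Socs1 (adjusted p = 0.0131). The same test called 59.9% of all tested genes, so 3 of 8 members was not above that background. Replicates with the same number deviated together, and with the replicate number as a block Cish was called as well (adjusted p = 2.6e-04 against 0.0713 without it), while the block called 72.2% of all genes. The plot of all members by library gives the values behind these tests.

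**Figure D1:**
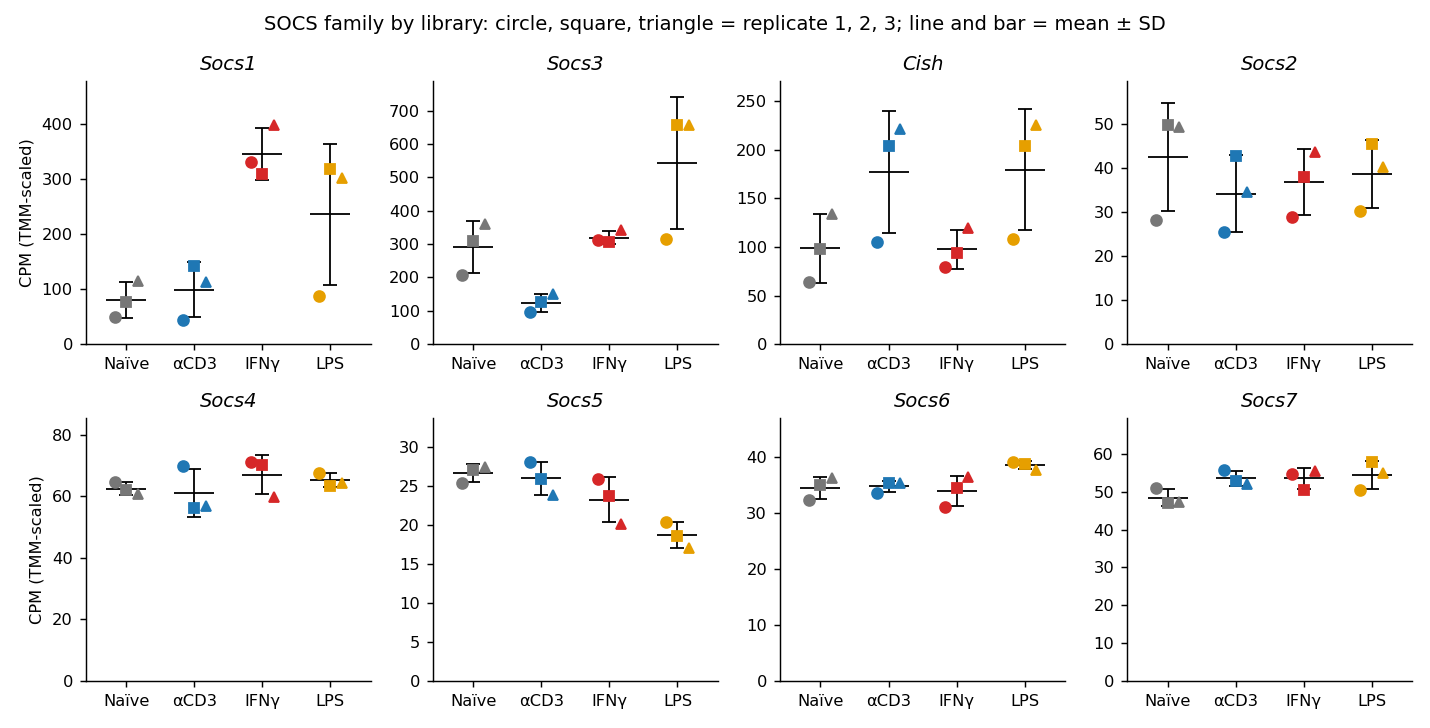
CPM of each member (y axis, own scale starting at 0) in Naïve, αCD3, IFNγ and LPS libraries (x axis), with replicates 1, 2 and 3 as circle, square and triangle and the mean ± SD as line and bar. Socs1 had its highest mean under IFNγ, at 308.4 to 398.6 CPM, Socs3 had its lowest under αCD3, and replicate 1 was the lowest library for Cish and Socs2 in all 4 groups.

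Against Naïve, IFNγ changed 1 member, αCD3 1 member and LPS 3 members of 8. Of all tested genes, the same comparisons called 12.4% under IFNγ, 38.6% under αCD3 and 49.3% under LPS. With the replicate block, the counts of members became 1, 3 and 5, against 24.9%, 52.4% and 59.5% of all genes. The median log2 fold change of the 8 members was 0.04 under IFNγ, -0.01 under αCD3 and 0.17 under LPS, beside -0.02, -0.02 and -0.01 over all tested genes. The 3 comparisons share the Naïve libraries.

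**Figure D2:**
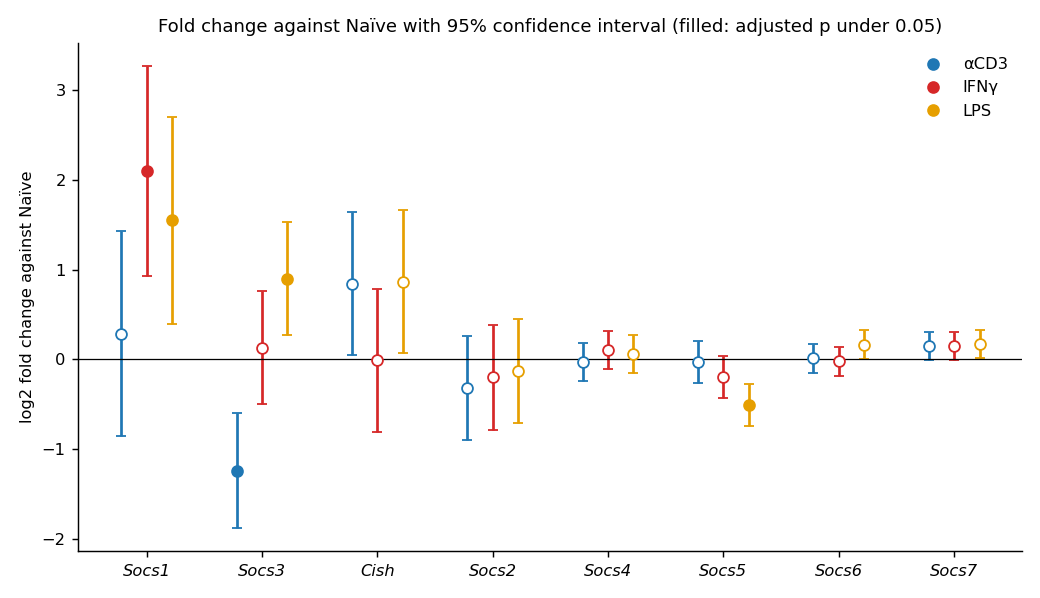
Log2 fold change against Naïve (y axis) of each member (x axis) under αCD3, IFNγ and LPS, with 95% confidence intervals from the edgeR fit and filled points where the adjusted p was under 0.05. Filled points are Socs1 under IFNγ and LPS, Socs3 under αCD3 and LPS, and Socs5 under LPS.

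Socs1, the inhibitor best known for restraining IFNγ signalling, rose under IFNγ. Naïve libraries held 50.2, 77.2 and 115.3 CPM in replicates 1 to 3, and IFNγ libraries held 331.3, 308.4 and 398.6 CPM. All 3 IFNγ libraries lay above all 3 Naïve libraries. Marker sums of other cells moved between the same groups. For B cell markers they were 2734 to 2839 CPM against 3414 to 3720 CPM in Naïve, where 2 of 10 fell and 0 rose. For 6 natural killer cell markers they were 109.7, 234 and 231 CPM in IFNγ replicates 1 to 3 against 97.1 to 116 CPM in Naïve. Only Eomes of these 6 was called, at a mean of 125 against 63.7 CPM. Gzma stood at 50.4 against 30.8 CPM, and Klrb1c, Klra4, Klra8 and Ncr1 at 1.95 to 5.30 CPM in both groups. Myeloid sums were 1068, 1797 and 1828 CPM against 682, 1344 and 1400 CPM in Naïve, where 1 of 14 rose and 1 fell. The part of these markers in the result was not tested. The log2 fold change of Socs1 was 2.10 ± 0.53 (SE, n = 3 per group, 95% interval 0.92 to 3.27, adjusted p = 0.0272), a 4.28-fold higher mean. Its ratio within a replicate number ranged from 3.46 to 6.60. The call rested on each of several libraries, since the adjusted p was 0.0912 without Naïve replicate 1, 0.0942 without Naïve replicate 2, 0.0637 without IFNγ replicate 2 and 0.0776 without IFNγ replicate 3, with log2 fold changes of 1.85 to 2.44 over all libraries left out in turn. It was also lost without a count filter (adjusted p = 0.0624). These fits were run without the replicate block. With the block and all libraries the log2 fold change was 2.23 ± 0.39 (adjusted p = 0.00589).

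Under LPS, Socs1 rose with a wider spread. LPS libraries held 88.0, 317.7 and 302.5 CPM, so that replicate 1 lay within the Naïve range and replicates 2 and 3 lay above it. The log2 fold change was 1.55 ± 0.52 (SE, n = 3 per group, adjusted p = 0.0306). Its adjusted p was 0.104 without Naïve replicate 1, 0.0799 without Naïve replicate 2, 0.104 without LPS replicate 2 and 0.0925 without LPS replicate 3, and 0.00567 without LPS replicate 1. The call was also lost without a count filter (0.0653) and with only the 2 groups compared in the fit (0.0522). None of these fits had the replicate block, with which the log2 fold change was 1.46 ± 0.38 (adjusted p = 0.0133). Transcripts of Ifng, the gene of the ligand itself, followed the same division, at 8.69, 300.2 and 260.4 CPM in LPS replicates 1 to 3 against 1.80 to 3.69 CPM in Naïve cells. Some marker sums of other cells also set LPS replicate 1 apart. In replicates 1 to 3 the natural killer cell markers summed to 101, 286 and 264 CPM and the myeloid markers to 691, 1259 and 1153 CPM. The B cell sum went the other way, at 3073, 2052 and 2108 CPM. Sums were 105, 108 and 91.5 CPM for neutrophil, 94.6, 90.0 and 70.8 CPM for dendritic cell and 66.9, 80.8 and 74.1 CPM for CD4 T cell markers. Against Naïve, 0 of 6 natural killer cell markers rose under LPS and 1 fell. The part of Ifng and of these cells in the result was not tested.

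Under αCD3, Socs1 stood at 43.4, 141.3 and 112.5 CPM, which overlaps the Naïve libraries on both sides. The log2 fold change was 0.29 ± 0.51 (SE, 95% interval -0.85 to 1.43, adjusted p = 0.692), so a change of either sign was not detectable. Ifng stood at 4.34, 40.6 and 31.2 CPM in the same 3 libraries. Socs1 was higher under IFNγ than under αCD3 by 1.81 ± 0.52 on the log2 scale (adjusted p = 0.0203), with adjusted p = 0.0503 without αCD3 replicate 3 and 0.0538 without IFNγ replicate 3. With the replicate block and all libraries it was higher by 2 ± 0.39 (adjusted p = 0.00401). The difference between IFNγ and LPS was 0.55 (95% interval -0.58 to 1.68, adjusted p = 0.417), which leaves room for a difference in either direction. Between αCD3 and LPS the log2 difference was -1.26 ± 0.52 (adjusted p = 0.118), which was called with the replicate block (-1.23 ± 0.38, adjusted p = 0.0417) and without LPS replicate 1 (adjusted p = 0.0277).

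Socs3, which binds receptors of the IL-6 type and their JAKs, moved in opposite directions under αCD3 and LPS. Naïve libraries held 206.9, 308.3 and 359.7 CPM, and αCD3 libraries held 96.1, 125.1 and 149.5 CPM, without overlap. Socs3 fell under αCD3 by 1.24 ± 0.29 on the log2 scale (SE, n = 3 per group, adjusted p = 0.00702), and the mean was 2.36-fold lower. The ratio to Naïve within a replicate number was 0.464, 0.406 and 0.416, and the call held with each of the 12 libraries left out in turn (adjusted p 0.00119 to 0.0291). B cell markers summed to 2391 to 2776 CPM under αCD3 against 3414 to 3720 CPM in Naïve, where 5 of 10 fell and 0 rose. T cell markers summed to 2364 to 2556 CPM against 1760 to 1964 CPM, where 5 of 10 rose and 1 fell. The part of these markers in the Socs3 result was not tested.

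LPS libraries held 314.6, 657.0 and 656.0 CPM of Socs3, with replicate 1 inside the Naïve range and the other 2 above it. Socs3 rose under LPS by 0.90 ± 0.28 on the log2 scale (SE, n = 3 per group, adjusted p = 0.0238), and it was higher within each of the 3 replicate numbers, by 1.52-, 2.13- and 1.82-fold. This call was lost without Naïve replicate 1 (adjusted p = 0.085), Naïve replicate 2 (0.0505), LPS replicate 2 (0.0889) or LPS replicate 3 (0.0859), with library size as the only scaling (0.0553), and with only the 2 groups compared in the fit (0.0684). None of these fits had the replicate block, with which Socs3 rose by 0.87 ± 0.18 (adjusted p = 0.00411). Il6 and Il10, cytokines that signal through STAT3, were also called higher under LPS, at 26.0 ± 8.62 and 41.3 ± 1.28 CPM (SD, n = 3) against 8.28 ± 2.12 and 11.5 ± 1.52 CPM in Naïve, and their part in the result was not tested.

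Under IFNγ, Socs3 stood at 311.7, 305.0 and 340.6 CPM, inside the range of the Naïve libraries. The log2 fold change was 0.13 ± 0.28 (95% interval -0.50 to 0.76, adjusted p = 0.824). Socs3 was higher under IFNγ than under αCD3, by 1.37 ± 0.29 on the log2 scale (adjusted p = 0.0039), and the 2 groups did not overlap. Against LPS, Socs3 under IFNγ differed by -0.77 ± 0.28 (adjusted p = 0.0531), and this was called by DESeq2 (-0.75, adjusted p = 0.0194), with the replicate block (-0.69 ± 0.18, adjusted p = 0.0148) and without LPS replicate 1 (adjusted p = 0.00426), Naïve replicate 1 (0.0416) or αCD3 replicate 1 (0.0499). Between αCD3 and LPS, Socs3 was 4.40-fold lower under αCD3 (log2 difference -2.14 ± 0.30, adjusted p = 8.09e-04). It stayed called with each library left out in turn (adjusted p 1.12e-04 to 0.00474).

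Myeloid cells also express Socs3, so the marker sums stand beside it. The summed level of the 14 myeloid markers had a median of 1344 CPM in Naïve (range 682 to 1400), 1050 CPM in αCD3 (583 to 1090), 1797 CPM in IFNγ (1068 to 1828) and 1153 CPM in LPS (691 to 1259). Of these markers, none rose and 4 fell under αCD3, 2 rose and 6 fell under LPS, and 1 rose and 1 fell under IFNγ. Mpeg1, which codes for a macrophage pore-forming protein, was the marker with the highest mean in each of the 4 groups and the 1 marker that rose under IFNγ, at 395 ± 124 CPM in Naïve, 513 ± 195 in αCD3, 969.9 ± 215 in IFNγ and 632 ± 189 in LPS (SD, n = 3). Csf1r, the receptor of a macrophage growth factor, stood at 109 ± 45.7 CPM in Naïve, 47.9 ± 13.7 in αCD3, 57.6 ± 23.2 in IFNγ and 26.3 ± 4.47 in LPS, so the markers did not share one order of the groups. Both genes were named after their values were seen. Their part in the result was not tested.

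Cish, an inhibitor of IL-2 and T cell receptor signalling in CD8 T cells, had a mean of 177 ± 62.8 CPM under αCD3 and 179 ± 62.2 CPM under LPS (SD, n = 3), against 98.5 ± 35.1 CPM in Naïve and 97.7 ± 19.9 CPM under IFNγ. Naïve libraries held 63.9, 97.5 and 134.2 CPM, and αCD3 libraries held 105.0, 203.8 and 221.7 CPM. IFNγ libraries held 79.8, 94.2 and 119.1 CPM, and LPS libraries held 108.5, 204.0 and 225.4 CPM. The groups overlapped, and replicate 1 was the lowest library in each of the 4 groups, as it was for the summed markers of myeloid cells, of natural killer cells and of CD4 T cells, whose part in the result was not tested. Within each replicate number Cish was 1.64- to 2.09-fold higher under αCD3 and 1.68- to 2.09-fold higher under LPS than in Naïve. Cish is overlapped by 2 genes on the opposite strand, and 89.59% of its annotated 31-base words occurred in no other gene. Part of its estimated counts could therefore belong to other genes.

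Without the replicate block, the log2 fold change of Cish against Naïve was 0.84 ± 0.36 for αCD3 (adjusted p = 0.0884) and 0.87 ± 0.36 for LPS (adjusted p = 0.069) by edgeR, and neither passed the threshold. DESeq2 without a block called both, at an adjusted p of 0.0385 for αCD3 and 0.0298 for LPS, and limma-voom called neither. With the block in edgeR the SE fell to 0.13 in both comparisons, at 0.83 for αCD3 (adjusted p = 5.67e-04) and 0.86 for LPS (adjusted p = 3.64e-04), and both were called. Cish under IFNγ differed from Naïve by 0.04 ± 0.13 with the block (adjusted p = 0.871) and by -0.01 without it. IFNγ against αCD3 gave -0.85 ± 0.36 (adjusted p = 0.0894) and IFNγ against LPS gave -0.88 ± 0.36 (adjusted p = 0.0771) by edgeR, and DESeq2 called both (0.0385 and 0.0321). With the block these became -0.80 ± 0.13 (adjusted p = 7.78e-04) and -0.82 ± 0.13 (adjusted p = 6.04e-04).
Leaving out αCD3 replicate 1 also brought αCD3 against Naïve to an adjusted p of 0.0264 and IFNγ against αCD3 to 0.0274, and leaving out LPS replicate 1 brought LPS against Naïve to 0.0241 and IFNγ against LPS to 0.0275. LPS against Naïve was also called without Naïve replicate 3 (0.0404) or αCD3 replicate 1 (0.0416), and IFNγ against LPS without αCD3 replicate 1 (0.047).

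Socs5, a member with a long N-terminal region that has been linked to growth factor and IL-4 receptors, was lowest under LPS. Naïve libraries held 25.4, 27.1 and 27.5 CPM, and LPS libraries held 20.4, 18.7 and 17.1 CPM, without overlap. The αCD3 libraries held 28.2, 26.0 and 23.9 CPM and the IFNγ libraries 25.9, 23.8 and 20.2 CPM. Socs5 fell under LPS by 0.51 ± 0.11 on the log2 scale (SE, n = 3 per group, adjusted p = 0.00277), and the call held with each library left out in turn (adjusted p 0.00182 to 0.0151). T cell and B cell markers were also lower under LPS by their sums, at 1451 to 1660 against 1760 to 1964 CPM in Naïve for the T cell list, of which 7 of 10 fell and none rose, and at 2052 to 3073 against 3414 to 3720 CPM for the B cell list, of which 3 of 10 fell and 1 rose. Their part in the result was not tested. Socs5 was 1.39-fold higher under αCD3 than under LPS (log2 difference 0.48 ± 0.11, adjusted p = 0.0112, 0.0519 without LPS replicate 3 and 0.00284 with the replicate block). Its ratio within a replicate number was 1.38 to 1.40.

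IFNγ against LPS called 1 member, and it was Socs5 (log2 difference 0.32 ± 0.11, adjusted p = 0.0392). The same comparison called 40.4% of all tested genes. The Socs5 call was lost when any one of 7 libraries was left out, with adjusted p of 0.133 without IFNγ replicate 1, 0.0949 without IFNγ replicate 2, 0.0939 without LPS replicate 2, 0.14 without LPS replicate 3, 0.0546 without Naïve replicate 2, 0.0539 without Naïve replicate 3 and 0.0529 without αCD3 replicate 2. It was lost too without a count filter (0.0573), by limma-voom (0.0505) and with only the 2 groups compared in the fit (0.101). With the replicate block, IFNγ against LPS called 4 members, Socs3, Socs5, Socs6 and Cish, and 52.7% of all genes. Among the other comparisons between treatments, IFNγ against αCD3 called 2 members (37.2% of all genes), Socs1 and Socs3, and αCD3 against LPS called 2 members (19.4% of all genes), Socs3 and Socs5. With the block these counts were 3 each, against 49.7% and 34.7% of all genes.

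Socs2, Socs4, Socs6 and Socs7 passed the test in no comparison when all 12 libraries were fitted without the replicate block. Over their 24 tests the log2 differences ranged from -0.32 to 0.17, with a lowest edgeR adjusted p of 0.0666 and 2 tests at an unadjusted p under 0.05, and DESeq2 and limma-voom called 0 of the 24 as well. Socs2, the brake of growth hormone receptor signalling, ranged from 25.4 to 49.7 CPM, and its replicate 1 library was the lowest in all 4 groups. Replicate 1 was the lowest library in all 4 groups for 15.3% of the tested genes. In αCD3 cells Socs2 was lower than in Naïve within each replicate number, and the block called it (log2 fold change -0.30 ± 0.10, adjusted p = 0.0254), which the fit without the block did not (-0.32 ± 0.26, adjusted p = 0.364).

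Socs6, which binds the receptor tyrosine kinase Kit, held 32.3, 35.1 and 36.3 CPM in Naïve and 39.3, 38.8 and 37.8 CPM under LPS. These libraries did not overlap, yet the log2 fold change was only 0.16 ± 0.07 (adjusted p = 0.0905, and 0.046 with the block). IFNγ against LPS gave -0.18 ± 0.07 (adjusted p = 0.0703, 0.0326 with the block and 0.0441 without IFNγ replicate 3). Socs6 has overlapping genes on both strands, so part of its estimated counts could belong to them. Of the annotated 31-base words, 92.62% in Socs6 and 93.45% in Socs2 occurred in no other gene.

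Socs4, related to Socs5 by its long N-terminal region, ranged from 56.1 to 71.3 CPM over the 12 libraries, and Socs7 from 47.1 to 58.0 CPM. The highest library of Socs7 stood 1.23-fold above its lowest, against 1.26-fold for Socs6 and 1.27-fold for Socs4. The interval of the log2 fold change against Naïve was -0.24 to 0.18 for αCD3, -0.11 to 0.31 for IFNγ and -0.15 to 0.27 for LPS in Socs4. Under LPS Socs7 stood 0.17 ± 0.07 above Naïve on the log2 scale (adjusted p = 0.0666), and among the alternatives run it was called when LPS replicate 1 was left out (adjusted p = 0.0279) and in no other. Socs4 under IFNγ against αCD3 was likewise called without αCD3 replicate 1 and in no other alternative (0.13 ± 0.10 with all libraries, adjusted p = 0.304, and 0.0403 without it).

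To compare levels between members, CPM was divided by the length of the union of annotated exons. In Naïve cells Socs3 was the most abundant member, at 101 ± 26.9 CPM per kilobase (SD, n = 3), followed by Socs1 (27.8 ± 11.3), Cish (15.4 ± 5.47), Socs4 (9.09 ± 0.290) and Socs7 (6.67 ± 0.304). Socs2 (4.45 ± 1.29), Socs5 (4.16 ± 0.177) and Socs6 (3.05 ± 0.178) were lowest, and the Socs2 and Socs5 levels differed by less than the SD of Socs2. The libraries of Socs1 and Cish overlapped on this scale. Under IFNγ, Socs1 (119 ± 16.1 CPM per kilobase) and Socs3 (110 ± 6.55) differed by less than the SD of Socs1. Under αCD3 the first 3 members lay close together, at 42.7 ± 9.25 for Socs3, 34.1 ± 17.3 for Socs1 and 27.5 ± 9.79 for Cish, and under LPS they stood at 188 ± 68.3, 81.2 ± 44.2 and 27.9 ± 9.70 CPM per kilobase. Taking the longest transcript as the length in place of the exon union changed 17 of the 32 ranks, Socs1 and Socs3 under IFNγ among them. Socs2 in Naïve moved from rank 6 to rank 4, above Socs4 and Socs7, so its place there among the lowest members holds for the exon union alone.

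The summed level of the family was 171 ± 44.2 CPM per kilobase in Naïve (SD, n = 3), 131 ± 33.7 under αCD3, 272 ± 25.0 under IFNγ and 324 ± 123 under LPS, where replicate 1 stood at 183 and the other 2 at 397 and 393. Socs1 held 15.8 ± 2.50% of the total in Naïve and 43.6 ± 1.92% under IFNγ. Socs3 held 58.7 ± 1.60% in Naïve and 58.2% under LPS (57.3 to 59.6% in the 3 libraries), but 33.0 ± 3.79% under αCD3. Cish held 20.6 ± 2.63% under αCD3 and 4.75 to 9.82% in the libraries of the other groups. These shares are descriptions and were not tested.

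**Figure D3:**
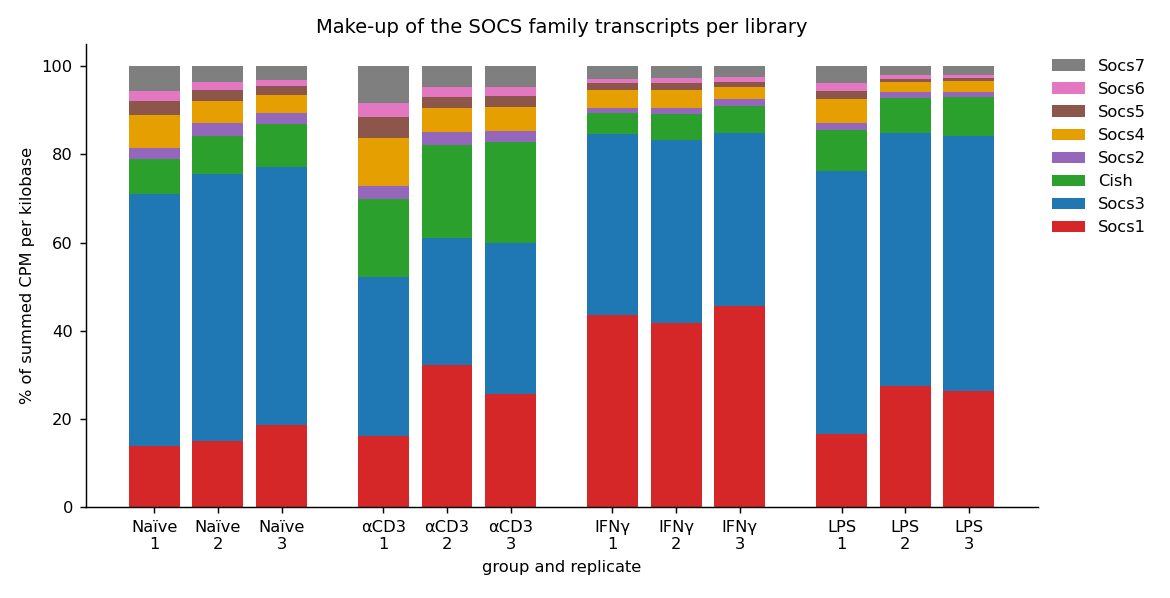
Share of each member in the summed CPM per kilobase of the family (y axis, percent) in each library (x axis, group and replicate number). Socs1 takes 41.7 to 45.6% in the IFNγ libraries and 13.8 to 18.6% in Naïve, and Cish is widest in the αCD3 libraries, at 17.7 to 22.9%.

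The other genes of the pathway, 64 tested genes in 7 lists, are given by their counts. Against Naïve, IFNγ raised 13 and lowered 2 of them, αCD3 raised 15 and lowered 13, and LPS raised 27 and lowered 9. These were 23.4%, 43.8% and 56.2% of the 64, beside 12.4%, 38.6% and 49.3% of all tested genes, and the counts of each list are to be read against the same shares. Counts with the replicate block are to be read against the 24.9%, 52.4% and 59.5% of all genes that the block called. With 1 library left out in turn, 10 to 19 of them were called under IFNγ, 21 to 36 under αCD3 and 28 to 40 under LPS. The replicate block raised the number called from 15 to 25 under IFNγ and from 28 to 44 under αCD3. Between treatments, 27 were called for IFNγ against αCD3, 26 for IFNγ against LPS and 23 for αCD3 against LPS, which were 42.2%, 40.6% and 35.9% of the 64 beside 37.2%, 40.4% and 19.4% of all tested genes. With the block these counts were 42, 41 and 37, beside 49.7%, 52.7% and 34.7% of all genes.

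Among ligands of the pathway, 1 of 14 tested rose under IFNγ, 1 under αCD3 and 6 under LPS, and none fell. With the replicate block, 3 ligands were called under IFNγ, 9 under αCD3 and 8 under LPS, and DESeq2 called 5 under αCD3. Il27, a cytokine of the IL-12 family, rose under IFNγ from 0.638 ± 0.363 to 5.47 ± 1.26 CPM (SD, n = 3, adjusted p = 0.00797). Lif, which signals through the IL-6 receptor chain gp130, rose under αCD3 by 3.37 ± 0.89 on the log2 scale (adjusted p = 0.0133), and Ifng rose under LPS by 6.19 ± 1.25 (adjusted p = 0.00234). The αCD3 libraries of Lif spread from 4.51 to 40.4 CPM, against 1.51 to 3.51 CPM in Naïve.

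Receptor chains moved in all treatments, with 6 of 18 higher and 1 lower under IFNγ, 5 higher and 7 lower under αCD3, and 6 higher and 3 lower under LPS, where the block called 15. Il12rb1 and Il12rb2, the chains of the IL-12 receptor, rose under IFNγ by 2.75 ± 0.44 and 2.68 ± 0.53 on the log2 scale. Il2ra, the high-affinity chain of the IL-2 receptor, rose by 2.17 ± 0.28 under αCD3 by 2.70 ± 0.28 under LPS and by 0.93 ± 0.27 under IFNγ (adjusted p = 0.0469). Il7r, the IL-7 receptor chain, fell by 2.12 ± 0.26 under αCD3.

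Of 7 STATs, 2 were higher and 1 lower under IFNγ, 2 higher and 2 lower under αCD3, and 3 higher under LPS, where library size as the only scaling called 5. Stat2 rose under IFNγ by 2.17 ± 0.31 on the log2 scale, under αCD3 by 1.13 ± 0.30 and under LPS by 1.75 ± 0.31. Of the STAT5 genes, Stat5a fell under IFNγ by 0.38 ± 0.09 (adjusted p = 0.0239) and rose under αCD3 by 0.54 ± 0.09 (adjusted p = 0.00117) and under LPS by 1.10 ± 0.09, from 160 ± 14.0 to 343 ± 25.0 CPM. Stat5b fell under αCD3 by 0.62 ± 0.07 (adjusted p = 6.78e-05) and was not called under IFNγ (-0.21 ± 0.07, adjusted p = 0.0699) or LPS (-0.02 ± 0.07, adjusted p = 0.811). Of the 4 Janus kinases, edgeR, DESeq2 and limma-voom called 0 against Naïve in any treatment (by edgeR, 1 under IFNγ at an unadjusted p under 0.05 and 0 under αCD3 and LPS), while the replicate block called 1 under αCD3 and 1 under LPS, and library size as the only scaling called 2 under LPS. Estimates for Tyk2 were low and scattered in this table and are not interpreted.

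Of 10 other inhibitors of the pathway, 3 rose under IFNγ, 4 rose and 2 fell under αCD3, and 5 rose and 4 fell under LPS. The block called 6 of them under IFNγ. Usp18, which blocks type I interferon receptor signalling, rose in all 3 treatments, by 3.36 ± 0.67 on the log2 scale under IFNγ, 2.62 ± 0.65 under αCD3 and 3.51 ± 0.67 under LPS. Its αCD3 libraries spread widely, from 32.1 to 224 CPM, against 15.5 to 28.1 CPM in Naïve. Pias3, an inhibitor of STAT3, fell under αCD3 by 0.71 ± 0.14 and under LPS by 0.92 ± 0.14. Among the partners through which the SOCS box reaches its ubiquitin ligase, 3 of 6 rose under αCD3 and 5 of 6 under LPS, none fell, and 0 were called under IFNγ by edgeR or limma-voom (2 at an unadjusted p under 0.05 by edgeR, and 1 called by DESeq2, 1 with the block and 1 with only the 2 groups compared in the fit). With library size as the only scaling, 3 partners were called under LPS. Cul5 and Rnf7, the cullin and RING protein of the ligase that the SOCS box recruits, rose under αCD3 by 0.31 ± 0.07 (adjusted p = 0.0055) and 0.42 ± 0.10 (adjusted p = 0.00676) on the log2 scale and under LPS by 0.43 ± 0.07 and 0.44 ± 0.10. Cul2, a cullin that pairs mainly with the related VHL box, rose by 0.69 ± 0.20 under αCD3 and by 0.75 ± 0.20 under LPS. Of 5 other SOCS box proteins tested, 1 rose under IFNγ, 2 fell under αCD3, and 2 rose and 2 fell under LPS, and the block called 2 under IFNγ. With library size as the only scaling, 2 were called under IFNγ, 4 under αCD3 and 2 under LPS.

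To find the genes whose pattern was most like each member that differed, log2 CPM was correlated over the 12 libraries among 9451 genes, as a description that group differences and shared libraries both enter. Socs1 was most like Il12rb2 (Pearson's r = 0.965), Rmi2 (0.964) and Insl6 (0.963). Il12rb2 stood at 19.6 ± 5.59 CPM in Naïve, 25.6 ± 10.1 under αCD3, 125 ± 32.5 under IFNγ and 106 ± 62.7 under LPS (SD, n = 3). Rmi2 lies 49.5 kb from Socs1 on chromosome 16, a closeness that was looked up after its value was seen. Socs3 was most like Arid5a (0.963), which codes for an RNA-binding protein that stabilises cytokine mRNAs, the chemokine gene Ccl5 (0.961) and the elongation factor gene Ell2 (0.953). Arid5a stood at 262 ± 48.4 CPM in Naïve, 170 ± 19.4 under αCD3, 298 ± 45.8 under IFNγ and 393 ± 137 under LPS. Socs5 was most like Syne3 (0.947), Pgrmc1 (0.947) and Urod (0.941), and these 3 genes were lowest under LPS, as Socs5 was.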

How the data were processed

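Magnetic-bead isolated splenic CD8 T cells were profiled in 12 mRNA libraries, grouped by the labels. The authors pseudo-aligned reads with kallisto to mm10 and deposited expected (estimated) counts per gene symbol, unscaled and per library. The kallisto version and transcript annotation are not given in the sources used here. The submitters' processing notes also name DESeq2 1.24.0. Estimated counts can split reads between overlapping genes, and of the members' annotated 31-base words, 89.59% (Cish) to 100% (Socs1, Socs3, Socs5) occurred in no other gene.

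Counts were rounded and analysed with edgeR 4.0.16 in R 4.3.3 (TMM factors, filterByExpr, robust glmQLFit and glmQLFTest, group as the only term, Benjamini-Hochberg adjustment over 12122 genes), with DESeq2 1.42.0 and limma 3.58.1 (voom) as alternatives. CPM used TMM-scaled library sizes, and likeness was computed on log2 CPM (prior count 2) among genes averaging 5 CPM or more. Scripts were tested on simulated data. Coordinates and exon lengths came from GENCODE M21 (GRCm38, the build that mm10 names). Promoters came from RefSeq.

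The labels number replicates in every group without saying what a number shares. Deviations from the group means correlated at 0.117 to 0.401 in all 18 same-number pairs and at -0.354 to 0.102 in 36 other pairs, and each of the 12 libraries correlated best with its own number. The numbers were therefore taken, from the data, to pair the samples, and values with the replicate block are given beside results whose call they change.

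The members and gene lists were chosen with earlier results of these data known. All 8 members are described. Named beside them are the 3 genes most correlated with each member that differed among the groups, leaving out predicted genes, and from the pathway lists called genes with the largest change per treatment and at least 5 CPM. Il6, Il10, Stat5a, Stat5b, Cul5 and Rnf7 were named after their values were seen.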

Additional observations from a re-analysis of the deposited data

How the results depend on the processing

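Of 960 recomputed log2 fold changes of the members, 860 kept their direction and side of the threshold, 28 passed it newly, 30 no longer passed it and 42 changed sign, all of the last uncalled (lowest adjusted p 0.268). The number of members called without a count filter was 0 for IFNγ against Naïve (Socs1 at an adjusted p of 0.0624) and 0 for IFNγ against LPS. It was 2 for αCD3 against Naïve and 3 for IFNγ against LPS by DESeq2, and 0 for IFNγ against LPS by limma-voom, where edgeR had 4 members at an unadjusted p under 0.05. With only the 2 groups compared it was 1 for LPS against Naïve and 0 for IFNγ against LPS. With the replicate block it was 3 for αCD3 against Naïve, 5 for LPS against Naïve and 4 for IFNγ against LPS, and called genes of the pathway lists numbered 25 for IFNγ against Naïve, 44 for αCD3 against Naïve, 42 for IFNγ against αCD3, 41 for IFNγ against LPS and 37 for αCD3 against LPS. The block changed no other call of a member than those given in the report. Leaving out 1 library in turn, members called ranged from 0 to 1 for IFNγ against Naïve, 1 to 2 for αCD3 against Naïve, 1 to 5 for LPS against Naïve, 1 to 4 for IFNγ against αCD3, 0 to 3 for IFNγ against LPS and 1 to 3 for αCD3 against LPS. A group left with 2 libraries was assumed to vary like the others.

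Log2 fold changes that changed sign with library size as the only scaling, which moved the median of all genes to between -0.22 and 0.11, were against Naïve Socs3 (-0.01) and Socs4 (-0.04) under IFNγ, Socs6 (-0.10) under αCD3, and Socs4 (-0.15), Socs6 (-0.05) and Socs7 (-0.04) under LPS, and against LPS Socs7 under IFNγ (0.05) and αCD3 (0.08) and Socs4 (0.01) and Cish (0.07) under αCD3. For IFNγ against αCD3, Socs7 became 0.02 with DESeq2 size factors, 0.01 by DESeq2 and 0 with only the 2 groups, and Socs6 under αCD3 became 0 with DESeq2 size factors. Cish under IFNγ became 0.03 by limma-voom and 0.04 with the block. Leaving out 1 library, sign changes occurred within these ranges. For IFNγ against Naïve they were -0.25 to 0.28 (Cish), -0.07 to 0.31 (Socs3) and -0.07 to 0.03 (Socs6). For αCD3 against Naïve they were -0.06 to 0.65 (Socs1), -0.15 to 0.02 (Socs4), -0.10 to 0.02 (Socs5) and -0.04 to 0.05 (Socs6), and for LPS against Naïve -0.36 to 0.02 (Socs2). For IFNγ against LPS they were -0.22 to 0.08 (Socs2), 0 to 0.12 (Socs4) and -0.08 to 0.02 (Socs7), for IFNγ against αCD3 -0.07 to 0.30 (Socs2), -0.08 to 0.02 (Socs6) and -0.03 to 0.04 (Socs7), and for αCD3 against LPS -0.28 to 0.25 (Cish) and -0.08 to 0.02 (Socs7). The cause was not tested.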
